A study of Gallus gallus with 45 samples.

Results

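The libraries compared here are the last and the first stages of a time course of neural crest formation in wild-type chick embryos, with 3 bulk RNA libraries at the stage of 10 somite pairs (10ss) and 4 at Hamburger-Hamilton stage 5 (HH5), which together are 7 of 45 libraries over 12 stages. The stage labelled HH7 is written 1ss here. No embryo was treated. At 10ss the tissue taken was the upper part of the midbrain neural tube together with the crest leaving it. At HH5, when no crest can yet be seen, it was the area flanking the primitive streak that is expected to form midbrain crest later. Each library pools at least 5 to 7 embryos, and the difference between the pieces that were cut and the difference in stage cannot be told apart. The groups are set by stage and not by a measured value, though earlier results of these data were known when the comparison was chosen.

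At HH5 the chick embryo is gastrulating, so cells that will form endoderm, mesoderm and ectoderm lie close to each other, and ectoderm at the border of the neural plate is only beginning to be set apart. By 10ss the neural tube has closed in the head, the midbrain has its boundaries, and neural crest cells leave the dorsal tube and move away as mesenchyme. Genes that mark germ layers, epithelia and axial position are therefore natural groups in which to read the interval, besides the known neural crest and stem cell genes.

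The 10ss libraries held 29.7 M, 24.6 M and 20.02 M reads and the HH5 libraries 25.9 M, 21.7 M, 25.4 M and 24.6 M reads. Values are counts per 1 M reads of the scaled library total (CPM; M, mega), fold changes are log2 of 10ss over HH5 with their standard error (SE), and a gene was called higher or lower at an adjusted p below 0.05 in edgeR's quasi-likelihood test and a log2 fold change beyond 0.75. The markers of neural crest chosen for the tissue check (SOX10, FOXD3, SNAI2, TFAP2B, ETS1 and PAX7) summed to 747 to 1219 CPM at 10ss, against 131 to 285 CPM at HH5, and 5 of the 6 were called higher. The exception was ETS1, which made up most of the sum in every HH5 library. It had 136, 99.9 and 152.5 CPM at 10ss, against 240, 184, 141 and 76.9 CPM at HH5 (log2 fold change -0.31 ± 0.52 SE, adjusted p = 0.723). The 6 markers of non-neural ectoderm summed to 385 to 435 CPM at 10ss, against 1315 to 1963 CPM at HH5, with 4 called lower. The 4 markers of the neural plate and tube summed to 58.3 to 79.2 CPM at 10ss and 48.4 to 84.9 CPM at HH5, and these ranges overlapped. Of these 4, 1 was called higher, LMX1B, and SOX2, SOX3 and OTX2 were not called. LMX1B had 13.5, 12.3 and 7.98 CPM at 10ss, against 5.30, 5.10, 6.09 and 4.62 CPM at HH5 (log2 fold change 1.09 ± 0.31 SE, adjusted p = 0.00735). In bulk tissue, fewer cells of a type and less RNA of that gene in each cell cannot be told apart, and this holds for every result below.

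Of 18525 genes tested, 1334 were called higher at 10ss, which is 7.2% of all genes, and 1815 were called lower, which is 9.8%. Among the genes called, the 10ss and HH5 libraries did not overlap for 1246 of the higher and 1672 of the lower ones. Over all 18525 genes, called or not, 2859 did not overlap with 10ss higher and 3181 with 10ss lower. Lack of overlap alone is thus common. The risen genes took 14.2, 13.3 and 15.2% of the counts in the 10ss libraries, against 6.75, 6.70, 6.92 and 7.84% in the HH5 libraries. The fallen genes took 4.25, 3.75 and 3.17% at 10ss, against 11.1, 11.4, 11.1 and 10.2% at HH5. Large changes were more often falls, with 254 genes above a log2 fold change of 3 and 496 below -3. For 115 of the risen genes no HH5 library had more than 3 reads, and for 248 of the fallen genes no 10ss library did. A symbol was known for 1074 of the risen and 1485 of the fallen genes. The median log2 fold change over all genes tested was -0.07, and the medians given below for gene lists stand beside that value. Counts called in a list stand beside the shares of 7.2% and 9.8%, and a share near these does not set a list apart. Some genes are in several lists, so the counts of different lists are not independent.

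**Figure D1:**
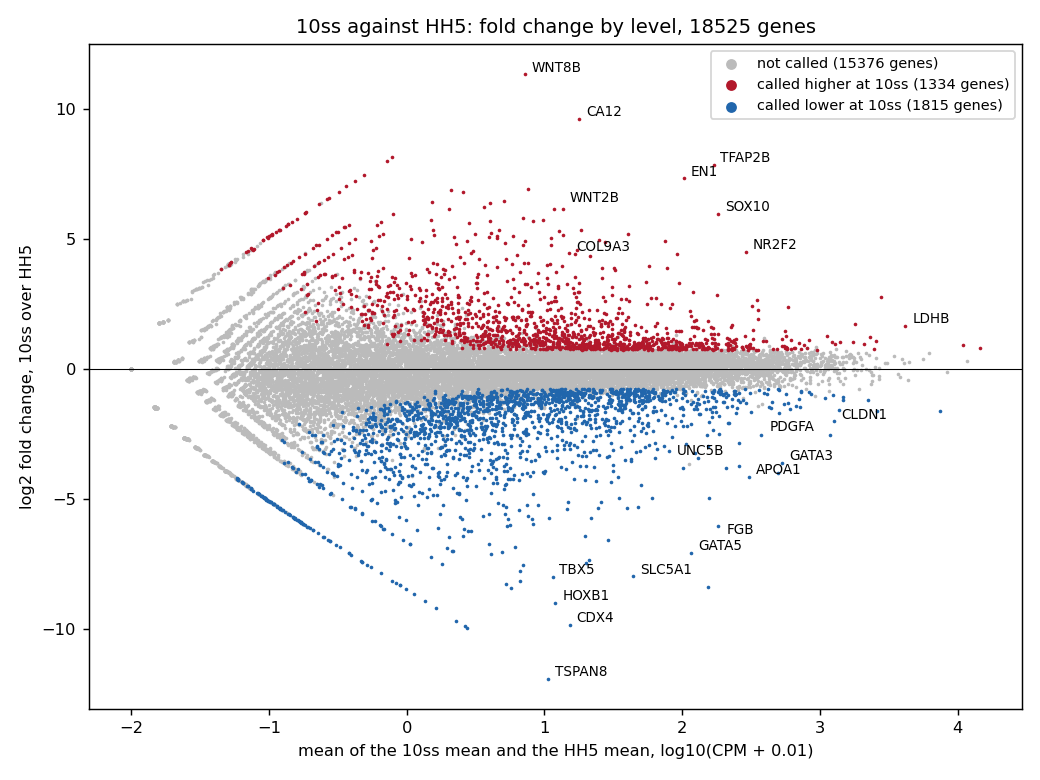
Log2 fold change of 10ss over HH5 (vertical axis) against the mean level of both groups (horizontal axis, log10 CPM) for 18525 genes, with 1334 called higher in red, 1815 called lower in blue and the rest in grey. Some named genes carry labels, and more points lie below -3 (496) than above 3 (254); the fitted changes of genes near 0 reads in a group depend on a prior count.

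In order of fold change, the 15 largest rises among called genes with a mean of at least 5 CPM and no overlap between the 10ss and HH5 libraries were WNT8B, CA12, TFAP2B, EN1, RAP1GDS1L, WNT2B, SOX10, PLEKHS1, KLHL4, WNT1, CRYAB, OPTC, HES5, MAB21L2 and EN2. EN1, a homeobox factor of the midbrain and hindbrain boundary region, had 284, 191 and 137 CPM at 10ss, against 1.79, 0.958, 1.35 and 0.871 CPM at HH5 (log2 fold change 7.35 ± 0.79 SE, adjusted p = 1.52e-09). TFAP2B, an AP-2 factor of the neural crest, had 329, 226 and 456 CPM at 10ss, against 1.83, 1.74, 1.27 and 0.871 CPM at HH5 (log2 fold change 7.88 ± 0.64 SE, adjusted p = 9.52e-13). For both genes every 10ss library was far above every HH5 library. CA12, a membrane carbonic anhydrase, had 16.8, 45.2 and 45.5 CPM at 10ss, against 0.0382, 0.131, 0 and 0 CPM at HH5, which was at least 302-fold higher at 10ss (adjusted p = 9.59e-08). CRYAB, a small heat shock protein first known from the lens, reached 15.5, 22.7 and 35.96 CPM at 10ss, against 0.496, 0.741, 0.732 and 0.492 CPM at HH5 (log2 fold change 5.32 ± 0.60 SE, adjusted p = 4.39e-09). OPTC, a small leucine-rich matrix protein known from the vitreous body of the eye, rose 36.9-fold (log2 fold change 5.20 ± 0.48 SE, adjusted p = 4.04e-11), and MAB21L2, a factor of eye and midbrain development, rose 34.9-fold (log2 fold change 5.12 ± 0.72 SE, adjusted p = 5.31e-07).

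The 15 largest falls, chosen in the same way, were TSPAN8, CDX4, HOXB1, TBX6, DIRAS2, TBX5, SLC5A1, WISP1, SOX17, PDZK1IP1, AGRP, GATA5, SPAM1, FGG and FGB. TSPAN8, a tetraspanin of epithelial membranes, had 0 reads in all 10ss libraries and 17.9, 27.6, 12.1 and 27.2 CPM in the HH5 libraries, at least 165-fold lower at 10ss (adjusted p = 2.03e-05). SLC5A1, the sodium-coupled glucose carrier of gut and kidney, had 0.0697, 0.627 and 0.363 CPM at 10ss, against 98.6, 113, 59.2 and 80.6 CPM at HH5 (log2 fold change -7.98 ± 1.25 SE, adjusted p = 3.61e-06). PDZK1IP1, a membrane protein that binds PDZ domains, had 0.348, 0.0836 and 0.207 CPM at 10ss, against 39.2, 42.03, 31.4 and 47.04 CPM at HH5 (log2 fold change -7.48 ± 0.91 SE, adjusted p = 2.11e-08). In each of these the lowest HH5 library was many times the highest 10ss library. AGRP, a secreted antagonist of melanocortin receptors, had 0.313, 0.167 and 0.259 CPM at 10ss, against 44.6, 39.3, 52.3 and 30.5 CPM at HH5 (log2 fold change -7.36 ± 0.76 SE, adjusted p = 5.14e-10). DIRAS2, a small GTPase of the RAS superfamily, was at least 104-fold lower at 10ss (adjusted p = 5.00e-07), and SPAM1, a hyaluronidase known from sperm, was at least 75.7-fold lower at 10ss (adjusted p = 1.27e-07).

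All 5 GATA factors that could be tested were called lower, with a median log2 fold change of -4.46. These zinc finger factors act in endoderm and heart (GATA4, GATA5 and GATA6) and in non-neural ectoderm, blood and sensory organs (GATA2 and GATA3). GATA5 had 2.30, 1.00 and 1.81 CPM at 10ss, against 215, 282, 259 and 168 CPM at HH5 (log2 fold change -7.07 ± 0.96 SE, adjusted p = 2.62e-07). GATA6 had 0.418, 0.376 and 0.363 CPM at 10ss, against 13.1, 19.5, 18.3 and 33.6 CPM at HH5 (log2 fold change -5.75 ± 0.73 SE, adjusted p = 5.82e-08), and GATA4 fell by 4.08 on the log2 scale (adjusted p = 2.41e-05). GATA2 had 7.07, 4.56 and 1.40 CPM at 10ss, against 81.5, 102, 86.1 and 117 CPM at HH5 (log2 fold change -4.46 ± 0.49 SE, adjusted p = 2.19e-09). GATA3 had 128, 65.02 and 50.98 CPM at 10ss, against 1120, 1042, 672 and 1124 CPM at HH5 (log2 fold change -3.60 ± 0.54 SE, adjusted p = 1.66e-06). No 10ss library reached the lowest HH5 library for any of the 5 factors, and all 5 calls held without each of the 7 libraries in turn.

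HOX and CDX factors, which set position along the trunk and hindbrain and are not used in the midbrain, were called lower in 16 of 26 cases (median -3.51, or -2.87 with members at the read floor set to their bound), and the other 10 did not pass the test. CDX4, a caudal-type factor of the posterior streak, had 0.0348, 0.0418 and 0 CPM at 10ss, against 39.3, 35.3, 23.8 and 23.7 CPM at HH5, at least 238-fold lower at 10ss (adjusted p = 9.69e-05). HOXB1, a HOX gene of the streak and later of the hindbrain, had 0.0697, 0.0418 and 0 CPM at 10ss, against 40.2, 15.6, 31.4 and 8.86 CPM at HH5, at least 187-fold lower at 10ss (adjusted p = 0.000127). HOXB5 was at least 63.4-fold lower at 10ss (adjusted p = 0.000173), with 10.8, 12.2, 4.24 and 5.34 CPM in the HH5 libraries. At 10ss these genes had at most 3 reads in any library. The family member HOXA7 did not pass the test, at 0.174, 0.669 and 0 CPM at 10ss, against 1.56, 4.66, 2.16 and 1.10 CPM at HH5 (log2 fold change -3.03 ± 1.27 SE, adjusted p = 0.0826). Without 10ss replicate 3, 11 members of the list were called lower.

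T-box factors were called lower in 8 of 14 cases and higher in 1 (median -3.26, or -2.35 with members at the read floor set to their bound). TBX6, which directs cells of the streak to paraxial mesoderm, had 0.0348, 0 and 0.0518 CPM at 10ss, against 14.5, 1.79, 5.97 and 23.6 CPM at HH5, at least 89.2-fold lower at 10ss (adjusted p = 1.26e-05). Its HH5 libraries ranged widely, but the lowest was still above every 10ss library. TBX5, a factor of heart and forelimb fields, had 0.0697, 0.0418 and 0.155 CPM at 10ss, against 17.6, 22.6, 17.96 and 33.2 CPM at HH5, at least 178-fold lower at 10ss (adjusted p = 0.000268). EOMES, which acts in endoderm and mesoderm at gastrulation, had 0.836, 1.38 and 0 CPM at 10ss, against 12.1, 6.62, 5.47 and 18.01 CPM at HH5 (log2 fold change -3.80 ± 0.97 SE, adjusted p = 0.00325), and TBX3 fell by 4.23 on the log2 scale (adjusted p = 0.000102). The member that rose, TBX22, which is known from palate and craniofacial mesenchyme, had 14.7, 10.8 and 7.25 CPM at 10ss, against 1.91, 2.79, 2.54 and 0.643 CPM at HH5 (log2 fold change 2.47 ± 0.47 SE, adjusted p = 9.28e-05).

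Endoderm genes fell in 16 of 26 cases (median -3.65), among them 3 chains of fibrinogen and APOA1, secreted proteins of the yolk endoderm and later of the liver. SOX17, an HMG-box factor that defines endoderm, had 0.104, 0.0418 and 0.0518 CPM at 10ss, against 24.8, 10.9, 9.94 and 9.95 CPM at HH5, at least 108-fold lower at 10ss (adjusted p = 2.61e-07). FOXA2, a forkhead factor of endoderm and of the axial midline, had 0.662, 0.711 and 1.14 CPM at 10ss, against 32.7, 31.7, 24.9 and 25.4 CPM at HH5 (log2 fold change -5.11 ± 0.69 SE, adjusted p = 2.31e-07). FGB, the fibrinogen beta chain, had 3.45, 5.48 and 7.36 CPM at 10ss, against 291, 554, 176 and 413 CPM at HH5 (log2 fold change -6.05 ± 1.11 SE, adjusted p = 5.15e-05), and FGG, the gamma chain, had 0.557, 0.460 and 0.777 CPM at 10ss, against 33.05, 83.98, 29.2 and 84.2 CPM at HH5 (log2 fold change -6.59 ± 1.52 SE, adjusted p = 0.00112). APOA1, the main protein of high density lipoprotein, had 31.7, 31.4 and 34.8 CPM at 10ss, against 369, 766, 349 and 817 CPM at HH5 (log2 fold change -4.14 ± 0.52 SE, adjusted p = 4.60e-08). For FGB, FGG and APOA1, HH5 replicates 2 and 4 were higher than HH5 replicates 1 and 3, and all 4 were above the 10ss libraries. TTR, a carrier of thyroid hormone that was in the same list, followed this pattern at 10.4, 26.6 and 13.4 CPM at 10ss, against 147, 285, 83.3 and 319 CPM at HH5 but did not pass the test (log2 fold change -3.63 ± 1.38 SE, adjusted p = 0.0529). The single rise in the list was SOX18, at 4.28, 3.35 and 2.23 CPM at 10ss, against 0.840, 1.09, 0.925 and 0.795 CPM at HH5 (log2 fold change 1.85 ± 0.51 SE, adjusted p = 0.00609), a factor that also belongs to vessel endothelium.

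Genes of lateral, heart and kidney mesoderm were called lower in 15 of 22 cases and higher in 1 (median -3.13, or -2.99 with members at the read floor set to their bound), and genes of the streak and paraxial mesoderm lower in 15 of 28 (median -1.86). TNNT2, the troponin T of heart muscle, had 2.68, 0.585 and 0.933 CPM at 10ss, against 40.03, 48.8, 40.9 and 70.02 CPM at HH5 (log2 fold change -5.12 ± 0.84 SE, adjusted p = 7.96e-06). MYL3, a myosin light chain of heart and slow muscle, had 1.64, 2.84 and 4.40 CPM at 10ss, against 28.4, 18.9, 23.9 and 27.3 CPM at HH5 (log2 fold change -3.07 ± 0.47 SE, adjusted p = 2.76e-06). The exception was PAX2, a paired-box factor of kidney and also of the midbrain and hindbrain boundary, with 42.4, 54.4 and 84.1 CPM at 10ss, against 3.55, 4.09, 4.66 and 3.82 CPM at HH5 (log2 fold change 3.90 ± 0.63 SE, adjusted p = 5.70e-06). Among germ cell genes 5 of 9 were called lower, or 3 without 10ss replicate 2. NANOG, in this list, is known from epiblast and germ cells, and the study also reports it in ectoderm and in the dorsal neural tube. It had 0.418, 0.544 and 1.14 CPM at 10ss, against 36.1, 12.4, 10.5 and 54.7 CPM at HH5 (log2 fold change -5.37 ± 0.64 SE, adjusted p = 1.68e-08).

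The HH5 pieces held mRNA of other germ layers at measurable levels. The 5 defining endoderm markers (SOX17, GATA6, FOXA2, HHEX and CER1) summed to 3.18 to 6.10 CPM at 10ss and 81.5 to 121 CPM at HH5, and all 5 were called lower. The 7 defining mesoderm markers that were tested summed to 25.2 to 58.7 CPM at 10ss and 96.1 to 198 CPM at HH5, all 7 lower, and 3 heart markers to 1.42 to 4.77 CPM at 10ss and 48.5 to 81.6 CPM at HH5. Most of the mesoderm sum at 10ss came from MEOX1, whose groups overlapped. MEOX1 had 53.5, 14.9 and 20.3 CPM at 10ss, against 118, 81.0, 142 and 30.1 CPM at HH5 (log2 fold change -1.65 ± 0.52 SE, adjusted p = 0.0171). SOX17 and TBX6 had at most 3 reads in every 10ss library. Over the whole lists, the summed level was 559 to 720 CPM at 10ss and 1182 to 2360 CPM at HH5 for endoderm, and 123 to 207 CPM at 10ss and 296 to 518 CPM at HH5 for streak and paraxial mesoderm. For lateral, heart and kidney mesoderm it was 319 to 372.5 CPM at 10ss and 427 to 527 CPM at HH5. That drop was much smaller than the drop of the 3 heart markers. Most of the endoderm sum at 10ss came from the chemokine receptor CXCR4, which averaged 548 CPM at 10ss and 238 CPM at HH5. The part of endoderm and mesoderm in the HH5 pieces in the falls described here and below was not tested.

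Genes that hold epithelial cells together fell in the same interval. In a list of claudins and other tight junction genes, 15 of 31 were called lower (median -1.28, or -1.25 with members at the read floor set to their bound), with 14 to 16 calls without each library in turn. The list also holds the splicing factors ESRP1 and ESRP2, which are not junction genes and are among the 15. CLDN1, a claudin of tight barriers, had 539.9, 474 and 500.3 CPM at 10ss, against 2244, 1812, 2094 and 1976 CPM at HH5 (log2 fold change -2.01 ± 0.26 SE, adjusted p = 8.86e-08). CLDN3 had 3.13, 5.02 and 2.59 CPM at 10ss, against 47.5, 46.3, 37.5 and 15.8 CPM at HH5 (log2 fold change -3.35 ± 0.58 SE, adjusted p = 1.98e-05), and CGN, cingulin, a scaffold of the junction plaque, had 4.98, 4.98 and 4.51 CPM at 10ss, against 23.96, 36.6, 28.7 and 42.6 CPM at HH5 (log2 fold change -2.77 ± 0.29 SE, adjusted p = 9.99e-10). None of these 3 genes had overlapping groups. The single rise, JAM2, a junctional adhesion molecule, was small, at 19.6, 28.2 and 36.8 CPM at 10ss, against 12.9, 14.3, 16.3 and 13.5 CPM at HH5 (log2 fold change 0.99 ± 0.21 SE, adjusted p = 0.000463), and was lost without 10ss replicate 3 (log2 fold change 0.7493). ESRP1, the splicing factor of epithelial cells counted in this list, had 8.08, 7.23 and 10.3 CPM at 10ss, against 27.97, 30.97, 21.1 and 37.4 CPM at HH5 (log2 fold change -1.78 ± 0.27 SE, adjusted p = 1.75e-06).

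Keratins and desmosome genes were called lower in 10 of 27 cases (median -0.60, or -0.54 with members at the read floor set to their bound) and connexins, which form gap junctions, in 7 of 15 (median -1.11, or -0.40 with members at the read floor set to their bound). KRT18, a keratin of simple epithelia, had 11.1, 7.86 and 13.8 CPM at 10ss, against 108, 117, 90.7 and 151 CPM at HH5 (log2 fold change -3.42 ± 0.37 SE, adjusted p = 1.52e-09), and KRT7 had 24.97, 19.4 and 26.99 CPM at 10ss, against 189, 248, 174 and 283 CPM at HH5 (log2 fold change -3.23 ± 0.39 SE, adjusted p = 2.33e-08). EVPL, envoplakin, which ties keratin to desmosomes, had 2.58, 1.25 and 1.55 CPM at 10ss, against 20.4, 20.99, 20.6 and 36.2 CPM at HH5 (log2 fold change -3.76 ± 0.43 SE, adjusted p = 5.68e-09). In all of these genes, every 10ss library was far below the lowest HH5 library. GJB6, a connexin of ectoderm and later of skin and ear, had 5.01, 3.60 and 2.90 CPM at 10ss, against 64.8, 63.3, 46.4 and 61.5 CPM at HH5 (log2 fold change -3.93 ± 0.62 SE, adjusted p = 4.28e-06), while GJA1, the most widely used connexin, changed less, at 182, 165 and 135 CPM at 10ss, against 431, 237, 326 and 263 CPM at HH5 (log2 fold change -0.96 ± 0.22 SE, adjusted p = 0.0012). Another connexin, GJC3, rose to 106, 96.8 and 122 CPM at 10ss, against 39.9, 72.5, 60.5 and 58.2 CPM at HH5 (log2 fold change 0.91 ± 0.19 SE, adjusted p = 0.000265).

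Some epithelial genes were not called. EPCAM, an adhesion molecule of epithelia, had 243, 276 and 333 CPM at 10ss, against 481, 388, 407 and 516 CPM at HH5 and did not pass the fold threshold (log2 fold change -0.66 ± 0.14 SE, adjusted p = 0.00049). CDH2, N-cadherin of neural tissue and mesenchyme, had 91.9, 70.5 and 50.5 CPM at 10ss, against 55.1, 41.9, 48.6 and 56.6 CPM at HH5 (log2 fold change 0.49 ± 0.26 SE, adjusted p = 0.174) and also was not called. Of 20 classical and type II cadherins, 7 were called lower, but only 3 without 10ss replicate 2 (median -0.90, or -0.73 with members at the read floor set to their bound). CDH20, a type II cadherin, had 0.836, 0.125 and 0.104 CPM at 10ss, against 5.34, 3.83, 11.6 and 6.66 CPM at HH5 (log2 fold change -4.19 ± 0.84 SE, adjusted p = 0.000204), and CDH11, a cadherin of mesenchyme, had 39.7, 33.2 and 26.8 CPM at 10ss, against 92.4, 90.2, 118 and 63.1 CPM at HH5 (log2 fold change -1.45 ± 0.28 SE, adjusted p = 0.000116). Of 23 genes of the change from epithelium to mesenchyme, which include genes of both states, 4 were called higher (SNAI2, VIM, ZEB1 and ZEB2) and 9 lower (median -0.66). The lower ones were the epithelial genes TJP3, ESRP1, ESRP2, ST14, LLGL2 and CDH1 and the mesenchymal genes TWIST1, FN1 and CDH11. The TWIST1 call was lost without 10ss replicate 2 or 10ss replicate 3. VIM, the intermediate filament vimentin, had 634, 538 and 522 CPM at 10ss, against 153, 118, 123 and 198 CPM at HH5 (log2 fold change 1.93 ± 0.22 SE, adjusted p = 6.08e-09), and the zinc finger repressor ZEB1 had 22.9, 18.9 and 18.3 CPM at 10ss, against 7.14, 8.10, 9.94 and 5.83 CPM at HH5 (log2 fold change 1.37 ± 0.32 SE, adjusted p = 0.00136). The integrins split, with ITGB3, the beta chain of the vitronectin receptor, at 109, 102 and 124 CPM at 10ss, against 12.5, 22.2, 18.5 and 14.5 CPM at HH5 (log2 fold change 2.73 ± 0.30 SE, adjusted p = 2.50e-09) and ITGA6, a laminin receptor chain, at 12.6, 9.53 and 9.17 CPM at 10ss, against 38.4, 30.9, 25.9 and 31.7 CPM at HH5 (log2 fold change -1.60 ± 0.35 SE, adjusted p = 0.000671).

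**Figure D2:**
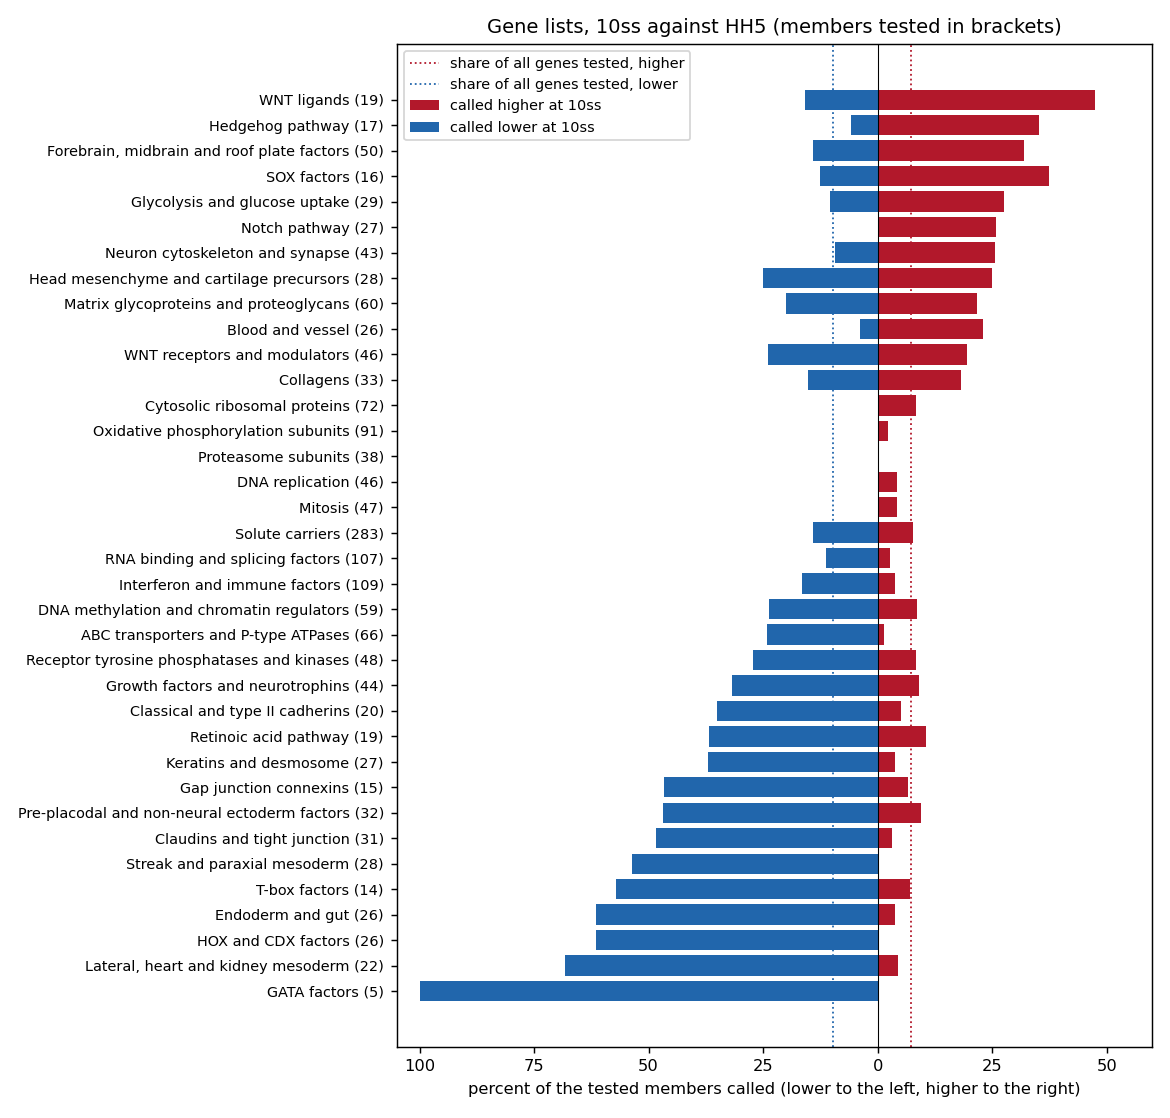
Percent of the tested members of 36 gene lists called higher (red, to the right) and lower (blue, to the left) at 10ss against HH5, with the number tested in brackets and dotted lines at 7.2% and 9.8%, the shares over all genes. To the right, 47.4% of WNT ligands and 35.3% of Hedgehog genes were higher, and to the left 68.2% of lateral, heart and kidney mesoderm genes and 61.5% of HOX and CDX factors were lower.

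Retinoic acid, made from vitamin A, is a signal of the trunk and posterior head. Of 19 pathway genes 7 were called lower and 2 higher, or 1 higher without 10ss replicate 3 (median -1.30, or -0.54 with members at the read floor set to their bound). DHRS3, which turns retinal back to retinol, had 2.33, 2.42 and 2.12 CPM at 10ss, against 38.96, 50.3, 49.4 and 43.2 CPM at HH5 (log2 fold change -4.30 ± 0.60 SE, adjusted p = 3.86e-07). CYP26A1, which degrades retinoic acid, had 3.69, 2.80 and 15.4 CPM at 10ss, against 62.5, 97.1, 61.9 and 91.7 CPM at HH5 (log2 fold change -3.44 ± 0.68 SE, adjusted p = 0.000157), and ALDH1A3, which makes it, had 1.71, 1.21 and 1.14 CPM at 10ss, against 12.1, 18.9, 14.3 and 17.1 CPM at HH5 (log2 fold change -3.51 ± 0.60 SE, adjusted p = 1.57e-05). Between the ends, enzymes that make the signal and enzymes that remove it or its precursor were thus both among the fallen. CYP26A1 did not fall throughout, since it averaged 78.3 CPM at HH5, 319 CPM at 2ss and 7.29 CPM at 10ss. The receptors split, with RARB at 15.5, 13.1 and 9.64 CPM at 10ss, against 42.9, 54.4, 60.4 and 57.6 CPM at HH5 (log2 fold change -2.08 ± 0.33 SE, adjusted p = 5.53e-06) and RXRG, which is used in neural crest and retina, at 15.3, 25.2 and 22.5 CPM at 10ss, against 5.34, 4.09, 4.08 and 3.60 CPM at HH5 (log2 fold change 2.29 ± 0.49 SE, adjusted p = 0.00048).

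Of 283 solute carriers 40 were called lower (14.1%) and 22 higher (7.8%), against 9.8% and 7.2% of all genes. Of 66 ABC transporters and P-type ATPases 16 were lower (24.2%) and 1 higher (1.5%), with a median of -0.19, or -0.12 with members at the read floor set to their bound, for the carriers and -0.23 for the pumps. That single rise was not called without 10ss replicate 3 or HH5 replicate 1, and there were 2 without 10ss replicate 2 or HH5 replicate 3. SLC16A12, a creatine carrier, had 0.836, 0.502 and 0 CPM at 10ss, against 13.6, 17.5, 21.04 and 18.1 CPM at HH5 (log2 fold change -5.21 ± 0.95 SE, adjusted p = 4.99e-05). ATP1B1, a beta subunit of the sodium pump, had 124, 82.04 and 69.9 CPM at 10ss, against 249, 292, 205 and 269 CPM at HH5 (log2 fold change -1.46 ± 0.23 SE, adjusted p = 2.80e-06), and ATP2B1, a calcium pump of the plasma membrane, fell by 1.96 on the log2 scale (adjusted p = 1.92e-08). Among the carriers that rose was SLC13A3, a sodium and dicarboxylate carrier, at 16.5, 12.9 and 19.4 CPM at 10ss, against 4.27, 3.96, 4.78 and 5.37 CPM at HH5 (log2 fold change 1.82 ± 0.30 SE, adjusted p = 8.66e-06).

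Secreted growth factors and peptides were called lower in 14 of 44 cases (median -0.85, or -0.64 with members at the read floor set to their bound). PDGFA, a ligand of platelet-derived growth factor receptor alpha, had 203, 87.1 and 40.8 CPM at 10ss, against 746, 712, 798 and 314 CPM at HH5 (log2 fold change -2.54 ± 0.65 SE, adjusted p = 0.00303), and 10ss replicate 3 was the lowest. TAC1, the precursor of substance P, fell by 3.23 on the log2 scale (adjusted p = 0.000235). VEGFD, a ligand of vascular endothelial growth factor receptors, rose to 35.3, 19.9 and 20.9 CPM at 10ss, against 1.34, 1.57, 1.81 and 1.70 CPM at HH5 (log2 fold change 3.98 ± 0.57 SE, adjusted p = 6.57e-07); it was 1 of 4 risen members, or 2 without 10ss replicate 1 or without HH5 replicate 2, 3 or 4. Among receptor tyrosine kinases and phosphatases 13 of 48 (median -0.50, or -0.35 with members at the read floor set to their bound) were called lower, or 6 without 10ss replicate 1 or 10ss replicate 2. EGFR, the receptor of epidermal growth factor, had 1.71, 1.13 and 1.35 CPM at 10ss, against 10.99, 12.8, 11.4 and 14.4 CPM at HH5 (log2 fold change -3.14 ± 0.49 SE, adjusted p = 2.97e-06). DDR1, a collagen receptor, rose to 179.5, 140 and 154 CPM at 10ss, against 71.02, 83.5, 77.00 and 79.9 CPM at HH5 (log2 fold change 1.02 ± 0.16 SE, adjusted p = 4.76e-06).

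Of 21 FGF ligands and receptors 5 were called lower and none higher, and only 3 were lower without 10ss replicate 1, 10ss replicate 2 or HH5 replicate 1 (median -0.79). Of 15 FGF feedback targets 2 were higher, FLRT3 and SPRED1, and 1 lower, ETV5, and only 1 was higher without 10ss replicate 1, 10ss replicate 2, HH5 replicate 1 or HH5 replicate 4 (median 0.24). Of 24 BMP, TGF-beta and Nodal ligands 3 were lower and none higher (median -0.66, or -0.47 with members at the read floor set to their bound). The falls were 12.5% of these ligands, near the 9.8% of all genes. Of 38 BMP and Nodal antagonists and effectors 9 were lower, but 5 without 10ss replicate 3, and the antagonist NOG and the secreted protein SMOC2 were the 2 higher ones, with only 1 higher without 10ss replicate 1, 10ss replicate 2 or HH5 replicate 4 (median -0.36). FGFR2 had 31.1, 18.9 and 17.2 CPM at 10ss, against 67.4, 63.1, 78.8 and 81.8 CPM at HH5 (log2 fold change -1.70 ± 0.28 SE, adjusted p = 8.70e-06) and FGFR4 3.41, 4.56 and 3.00 CPM at 10ss, against 17.9, 11.3, 11.02 and 17.98 CPM at HH5 (log2 fold change -1.99 ± 0.39 SE, adjusted p = 0.000127). In the BMP and Nodal branches, SMAD6, an inhibitory SMAD that BMP signalling itself induces, had 5.22, 5.94 and 3.00 CPM at 10ss, against 47.5, 34.98, 42.1 and 38.00 CPM at HH5 (log2 fold change -3.10 ± 0.31 SE, adjusted p = 2.69e-10), and GDF3, a ligand of the Nodal type, had 8.95, 7.36 and 6.06 CPM at 10ss, against 51.5, 47.2, 48.9 and 25.2 CPM at HH5 (log2 fold change -2.53 ± 0.33 SE, adjusted p = 1.21e-07). All 4 genes had every 10ss library below every HH5 library.

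Immune genes (interleukins, interferon factors, Toll-like receptors, chemokines and members of the tumour necrosis factor families) were called lower in 18 of 109 cases and higher in 4 (median -0.58, or -0.37 with members at the read floor set to their bound). TLR2A, a Toll-like receptor, had 0.627, 0.418 and 0.363 CPM at 10ss, against 11.6, 7.45, 6.59 and 8.21 CPM at HH5 (log2 fold change -4.14 ± 0.60 SE, adjusted p = 8.38e-07), and NFKBIA, the inhibitor of NF-kappa-B that NF-kappa-B induces, had 14.5, 9.07 and 7.00 CPM at 10ss, against 47.6, 32.7, 41.7 and 58.2 CPM at HH5 (log2 fold change -2.14 ± 0.37 SE, adjusted p = 1.92e-05). TNFRSF19, an orphan receptor of the tumour necrosis factor family that is known as a WNT target in human cells, rose to 169.5, 175 and 184 CPM at 10ss, against 8.43, 9.10, 7.63 and 7.00 CPM at HH5 (log2 fold change 4.45 ± 0.48 SE, adjusted p = 1.74e-09). Of 59 chromatin regulators 14 were lower, or 8 without 10ss replicate 2, and 5 higher, or 3 without HH5 replicate 2 (median -0.26). SMARCA4, the ATPase of the SWI/SNF complex, had 6.41, 5.85 and 7.77 CPM at 10ss, against 19.3, 21.1, 20.2 and 22.03 CPM at HH5 (log2 fold change -1.63 ± 0.29 SE, adjusted p = 4.39e-05), and SETD2, which trimethylates histone H3 on lysine in transcribed genes, had 22.3, 20.9 and 19.6 CPM at 10ss, against 67.7, 66.5, 82.5 and 90.3 CPM at HH5 (log2 fold change -1.87 ± 0.38 SE, adjusted p = 0.00019). PRDM1, a repressor of germ cells, endoderm and the border ectoderm, had 10.3, 6.94 and 11.8 CPM at 10ss, against 50.6, 46.3, 35.2 and 69.4 CPM at HH5 (log2 fold change -2.38 ± 0.41 SE, adjusted p = 1.86e-05), and PRDM12, a factor of sensory neurons and the border, had 3.83, 4.31 and 11.2 CPM at 10ss, against 0.725, 1.00, 0.501 and 1.17 CPM at HH5 (log2 fold change 2.91 ± 0.49 SE, adjusted p = 1.09e-05). Among RNA binding factors, RBM47, of gut endoderm, fell by 2.84 on the log2 scale (adjusted p = 0.00153).

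**Figure D3:**
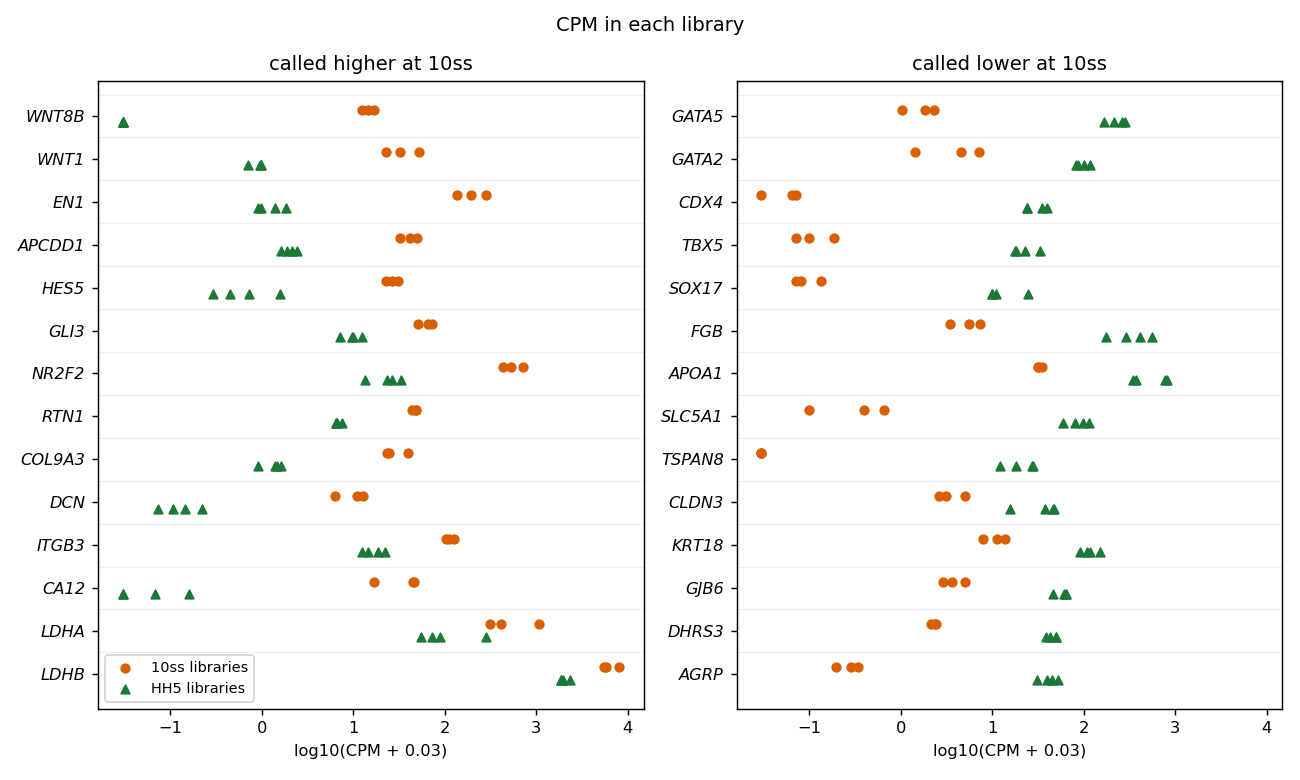
CPM (log10 axis, 0.03 added) of 28 genes in each of the 3 libraries of 10ss (orange circles) and the 4 libraries of HH5 (green triangles), with 14 genes called higher on the left and 14 called lower on the right. In all 28 genes the circles and triangles do not overlap; LDHA comes closest, with HH5 replicate 4 at 279 CPM and the lowest 10ss library at 307 CPM.

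WNT proteins are secreted signals of the dorsal neural tube and of the midbrain and hindbrain boundary. Of 19 WNT ligands 9 were called higher and 3 lower (median 1.10). WNT8B, known from the dorsal forebrain and midbrain, had 16.6, 14.4 and 12.3 CPM at 10ss, against 0, 0, 0 and 0 CPM at HH5, at least 122-fold higher at 10ss (adjusted p = 6.06e-09). WNT1, of the dorsal midline and the midbrain boundary, had 32.3, 52.4 and 22.9 CPM at 10ss, against 0.954, 0.958, 0.925 and 0.681 CPM at HH5 (log2 fold change 5.34 ± 0.72 SE, adjusted p = 2.17e-07). WNT2B had 38.7, 24.4 and 17.4 CPM at 10ss, against 0.458, 0.392, 0.463 and 0.151 CPM at HH5 (log2 fold change 6.18 ± 0.81 SE, adjusted p = 1.17e-07) and WNT4 153, 187 and 93.99 CPM at 10ss, against 9.12, 11.6, 9.71 and 8.89 CPM at HH5 (log2 fold change 3.88 ± 0.65 SE, adjusted p = 1.07e-05). Among ligands that fell, WNT8A, a ligand of the streak and mesoderm, had 0.0348, 0 and 0.414 CPM at 10ss, against 6.18, 6.84, 8.40 and 6.66 CPM at HH5 (log2 fold change -5.66 ± 1.25 SE, adjusted p = 0.000679), and WNT2, known from lateral mesoderm and heart, had 0.348, 0.627 and 0.466 CPM at 10ss, against 4.85, 7.71, 6.78 and 5.11 CPM at HH5 (log2 fold change -3.66 ± 0.61 SE, adjusted p = 1.02e-05). The ligands in the 2 directions thus were different genes of the same family, and no ligand named here had overlapping groups.

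WNT modulators moved in both directions, 9 of 46 higher and 11 lower, or 7 lower without 10ss replicate 3 (median -0.25). APCDD1, a membrane inhibitor and target of WNT signalling, had 41.1, 49.4 and 31.97 CPM at 10ss, against 1.83, 2.40, 2.08 and 1.59 CPM at HH5 (log2 fold change 4.37 ± 0.54 SE, adjusted p = 3.60e-08). NKD1, an inhibitor inside the cell that WNT induces, had 136, 107 and 114 CPM at 10ss, against 23.9, 17.8, 23.8 and 17.8 CPM at HH5 (log2 fold change 2.51 ± 0.28 SE, adjusted p = 2.26e-09). The R-spondins, secreted amplifiers, moved in both directions. RSPO1 had 34.5, 22.5 and 22.9 CPM at 10ss, against 2.17, 2.79, 2.74 and 3.33 CPM at HH5 (log2 fold change 3.27 ± 0.43 SE, adjusted p = 1.24e-07) and RSPO2 rose by 3.27 on the log2 scale (adjusted p = 6.01e-07), while RSPO3 had 12.3, 14.6 and 13.9 CPM at 10ss, against 186, 165, 163 and 250.4 CPM at HH5 (log2 fold change -3.82 ± 0.39 SE, adjusted p = 4.80e-10). The inhibitors DACT1 and SFRP1 fell, DACT1 to 0.662, 0.460 and 0.311 CPM at 10ss, against 6.53, 7.06, 7.55 and 8.10 CPM at HH5 (log2 fold change -3.90 ± 0.50 SE, adjusted p = 6.61e-08) and SFRP1 to 30.7, 18.6 and 9.22 CPM at 10ss, against 60.5, 83.9, 92.3 and 93.1 CPM at HH5 (log2 fold change -2.07 ± 0.39 SE, adjusted p = 7.52e-05). LEF1, a nuclear effector, had 391, 449 and 338 CPM at 10ss, against 293, 329, 324 and 219 CPM at HH5 and did not pass the test (log2 fold change 0.43 ± 0.38 SE, adjusted p = 0.464).

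Of 50 factors of forebrain, midbrain and roof plate 16 were called higher and 7 lower (median -0.02, or 0.00 with members at the read floor set to their bound). EN2, the paralog of EN1, had 33.2, 21.4 and 10.4 CPM at 10ss, against 1.03, 0.741, 0.694 and 0.114 CPM at HH5 (log2 fold change 5.06 ± 0.78 SE, adjusted p = 2.55e-06). The other risen members were EN1, PAX2, PAX5, PAX6, TAL2, LHX9, DMBX1, FOXD1, BARHL1, NKX6-2, EMX2, LMX1B, WNT1, WNT3A and WNT8B. The 7 fallen members were FEZF2, GATA3, SIX3, HESX1, TCF7L2, MEIS2 and LHX5. OTX2 was not called (log2 fold change -0.18 ± 0.33 SE, adjusted p = 0.75). The forebrain factors SIX3 and HESX1, which mark the anterior neural plate, were among those that fell, with SIX3 at 1.85, 0.711 and 1.09 CPM at 10ss, against 8.78, 19.9, 15.7 and 9.12 CPM at HH5 (log2 fold change -3.44 ± 0.44 SE, adjusted p = 8.61e-08) and HESX1 at 6.86, 5.73 and 4.71 CPM at 10ss, against 28.6, 60.1, 40.8 and 28.5 CPM at HH5 (log2 fold change -2.77 ± 0.51 SE, adjusted p = 5.94e-05). NR2F2, an orphan nuclear receptor of the COUP-TF type used in crest and head mesenchyme, had 709.6, 532 and 432 CPM at 10ss, against 26.5, 33.5, 23.5 and 13.2 CPM at HH5 (log2 fold change 4.53 ± 0.43 SE, adjusted p = 7.46e-11).

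Notch genes were called higher in 7 of 27 cases (median 0.36), and the other 20 did not pass the test. HES5, a repressor that Notch induces in neural progenitors, had 26.4, 22.5 and 30.6 CPM at 10ss, against 1.53, 0.261, 0.694 and 0.416 CPM at HH5 (log2 fold change 5.17 ± 0.96 SE, adjusted p = 6.48e-05). The ligands JAG1 and JAG2 rose to 14.2, 7.28 and 8.65 CPM at 10ss, against 2.25, 3.44, 3.24 and 1.17 CPM at HH5 (log2 fold change 1.9953 ± 0.44 SE, adjusted p = 0.000714) and to 8.25, 6.65 and 5.44 CPM at 10ss, against 1.34, 1.61, 1.70 and 2.16 CPM at HH5 (log2 fold change 1.99 ± 0.49 SE, adjusted p = 0.00196). HEY1, another target, had 7.38, 5.73 and 5.23 CPM at 10ss, against 2.33, 2.13, 2.16 and 2.08 CPM at HH5 (log2 fold change 1.49 ± 0.36 SE, adjusted p = 0.00188). The receptor NOTCH1 had 669, 844 and 308 CPM at 10ss, against 1076, 641, 765 and 371 CPM at HH5, with overlapping groups and no call (log2 fold change -0.23 ± 0.33 SE, adjusted p = 0.673).

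Hedgehog genes rose in 6 of 17 cases and fell in 1 (median -0.04). GLI3, the transcription factor that mostly represses Hedgehog targets, had 72.3, 64.7 and 50.7 CPM at 10ss, against 7.02, 9.63, 9.94 and 12.3 CPM at HH5 (log2 fold change 2.69 ± 0.25 SE, adjusted p = 6.41e-11). BOC and CDON, cell surface co-receptors of Hedgehog, had 23.3, 27.6 and 30.5 CPM at 10ss, against 8.20, 8.88, 10.6 and 11.8 CPM at HH5 (log2 fold change 1.46 ± 0.31 SE, adjusted p = 0.000438) and 16.5, 14.6 and 20.6 CPM at 10ss, against 6.83, 6.71, 9.48 and 6.55 CPM at HH5 (log2 fold change 1.22 ± 0.30 SE, adjusted p = 0.0026). DISP1, which releases the ligand from cells, had 27.1, 18.9 and 19.4 CPM at 10ss, against 6.41, 4.79, 6.71 and 6.28 CPM at HH5 (log2 fold change 1.85 ± 0.22 SE, adjusted p = 2.11e-08). GLI2, the main activator, had 1970, 2098 and 2660 CPM at 10ss, against 2073, 2109, 3154 and 1868 CPM at HH5 with no call (log2 fold change -0.04 ± 0.26 SE, adjusted p = 0.945). All 6 rises were called without each of the libraries in turn.

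Of 23 slits, netrins, chemokines and their receptors 3 were called higher and 7 lower (median -0.78, or -0.55 with members at the read floor set to their bound). UNC5B, a netrin receptor, had 66.03, 67.5 and 56.01 CPM at 10ss, against 482, 429.8, 472 and 430.1 CPM at HH5 (log2 fold change -2.84 ± 0.24 SE, adjusted p = 2.57e-12). DRAXIN, a secreted guidance protein and WNT inhibitor of the dorsal neural tube, rose to 89.7, 99.8 and 241 CPM at 10ss, against 28.2, 24.2, 24.6 and 22.4 CPM at HH5 (log2 fold change 2.53 ± 0.44 SE, adjusted p = 2.12e-05). CXCL12, a chemokine that attracts cells with CXCR4, fell to 48.6, 42.5 and 40.3 CPM at 10ss, against 249, 169.9, 179 and 155 CPM at HH5 (log2 fold change -2.10 ± 0.36 SE, adjusted p = 2.12e-05), CXCL14 rose to 75.2, 79.3 and 59.1 CPM at 10ss, against 17.97, 8.93, 11.6 and 7.80 CPM at HH5 (log2 fold change 2.62 ± 0.51 SE, adjusted p = 0.000127), and the receptor CXCR4 had 637, 469 and 537 CPM at 10ss, against 339, 181, 129 and 302 CPM at HH5 and did not pass the test (log2 fold change 1.20 ± 0.48 SE, adjusted p = 0.069). Of 9 plexins and neuropilins, the semaphorin receptors, NRP2 was higher and NRP1 and PLXNA1 lower, with only 1 lower without 10ss replicate 1, 10ss replicate 2, HH5 replicate 2, HH5 replicate 3 or HH5 replicate 4 (median 0.07). NRP2 was at 12.2, 11.8 and 16.1 CPM at 10ss, against 3.43, 4.36, 4.08 and 4.77 CPM at HH5 (log2 fold change 1.68 ± 0.34 SE, adjusted p = 0.000208) and NRP1 at 5.47, 3.39 and 1.55 CPM at 10ss, against 9.85, 10.9, 10.9 and 17.2 CPM at HH5 (log2 fold change -1.80 ± 0.46 SE, adjusted p = 0.00319). Of 18 semaphorins 1 was higher (5.6%, against 7.2% of all genes) and 5 lower (27.8%, against 9.8%). Only 3 were lower without 10ss replicate 2 (median of the list -0.42, or -0.41 with members at the read floor set to their bound). SEMA3D, a secreted semaphorin of the dorsal neural tube, had 65.2, 44.6 and 48.8 CPM at 10ss, against 9.54, 16.3, 15.9 and 12.6 CPM at HH5 (log2 fold change 1.96 ± 0.36 SE, adjusted p = 4.64e-05), and SEMA6A fell by 1.62 on the log2 scale (adjusted p = 0.00201). Of 4 ephrins 1 was lower, EFNB2 (median -0.32). Of 12 Eph receptors EPHA7 and EPHB6 were higher and EPHA1 lower (median 0.19), with only 1 higher without 10ss replicate 1, 10ss replicate 2, HH5 replicate 1, HH5 replicate 2 or HH5 replicate 4, and 2 lower without HH5 replicate 2. EFNB2 had 1.78, 0.836 and 2.38 CPM at 10ss, against 17.5, 12.9, 14.3 and 21.9 CPM at HH5 (log2 fold change -3.33 ± 0.45 SE, adjusted p = 2.02e-07) and EPHA1 5.57, 5.77 and 5.96 CPM at 10ss, against 43.5, 21.3, 29.98 and 40.95 CPM at HH5 (log2 fold change -2.56 ± 0.29 SE, adjusted p = 3.70e-09).

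Genes of the neuronal cytoskeleton and synapse were called higher in 11 of 43 cases and lower in 4 (median 0.04). RTN1, a reticulon of neurons, had 43.4, 48.8 and 48.5 CPM at 10ss, against 7.56, 6.49, 6.59 and 6.43 CPM at HH5 (log2 fold change 2.79 ± 0.35 SE, adjusted p = 4.68e-08). TUBB3, the neuronal beta tubulin that neural crest cells also express, had 144, 158 and 423 CPM at 10ss, against 47.3, 63.7, 74.1 and 82.9 CPM at HH5 (log2 fold change 1.85 ± 0.28 SE, adjusted p = 1.68e-06), 10ss replicate 3 being the highest. DPYSL2, a microtubule partner in growing axons, had 884, 741 and 846 CPM at 10ss, against 310, 299, 308 and 288 CPM at HH5 (log2 fold change 1.45 ± 0.16 SE, adjusted p = 4.15e-09). In contrast CNTN2, an adhesion molecule of early axons, had 11.7, 12.1 and 30.1 CPM at 10ss, against 55.8, 60.5, 57.00 and 39.5 CPM at HH5 (log2 fold change -1.57 ± 0.34 SE, adjusted p = 0.000567), and CHGA, chromogranin A of secretory granules, had 3.59, 1.76 and 1.19 CPM at 10ss, against 13.5, 12.98, 10.2 and 11.8 CPM at HH5 (log2 fold change -2.46 ± 0.39 SE, adjusted p = 4.76e-06).

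Of 104 transmitter receptors 7 were higher (6.7%) and 14 lower (13.5%), against 7.2% and 9.8% of all genes (median -0.53, or -0.35 with members at the read floor set to their bound). GABRB2, a GABA receptor subunit, had 26.9, 19.9 and 24.7 CPM at 10ss, against 176, 127, 147 and 131 CPM at HH5 (log2 fold change -2.61 ± 0.37 SE, adjusted p = 7.29e-07), and HTR1B, a serotonin receptor, had 1.57, 2.51 and 1.04 CPM at 10ss, against 18.8, 13.1, 17.1 and 16.5 CPM at HH5 (log2 fold change -3.25 ± 0.36 SE, adjusted p = 2.79e-09). GRM3, a metabotropic glutamate receptor, rose to 12.1, 7.23 and 6.22 CPM at 10ss, against 0.725, 0.392, 0.732 and 0.379 CPM at HH5 (log2 fold change 3.92 ± 0.49 SE, adjusted p = 4.33e-08). Of 73 potassium channels 7 were higher (9.6%) and 13 lower (17.8%), but 7 lower without 10ss replicate 1 or 10ss replicate 3 and 8 without 10ss replicate 2 (median -0.71, or -0.59 with members at the read floor set to their bound). KCND3, a potassium channel of the Shal type, had 9.40, 12.5 and 7.25 CPM at 10ss, against 1.41, 0.610, 0.501 and 1.10 CPM at HH5 (log2 fold change 3.41 ± 0.60 SE, adjusted p = 2.86e-05), KCNMA1, the large conductance channel opened by calcium, had 3.90, 2.34 and 3.21 CPM at 10ss, against 21.4, 14.9, 15.2 and 19.3 CPM at HH5 (log2 fold change -2.49 ± 0.39 SE, adjusted p = 4.56e-06), and CACNG3, a transmembrane regulator of glutamate receptors, had 0.836, 0.878 and 1.81 CPM at 10ss, against 21.8, 17.99, 17.6 and 17.8 CPM at HH5 (log2 fold change -4.02 ± 0.48 SE, adjusted p = 1.68e-08). The calls of the 6 genes named in this paragraph held without each of the libraries in turn.

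Genes of cartilage and head mesenchyme were called higher in 7 of 28 cases, all of them matrix genes, and lower in 7, which were transcription factors and the receptor PDGFRB (median of the list 0.00). COL9A3, a chain of the collagen of cartilage and vitreous, had 24.2, 23.1 and 39.7 CPM at 10ss, against 1.60, 1.35, 1.43 and 0.871 CPM at HH5 (log2 fold change 4.46 ± 0.55 SE, adjusted p = 2.75e-08). MATN1, matrilin of cartilage, had 55.9, 57.5 and 52.5 CPM at 10ss, against 5.88, 4.96, 6.59 and 7.30 CPM at HH5 (log2 fold change 3.16 ± 0.40 SE, adjusted p = 4.53e-08), and LUM, the proteoglycan lumican, had 116, 92.2 and 102 CPM at 10ss, against 17.7, 17.9, 15.03 and 11.9 CPM at HH5 (log2 fold change 2.73 ± 0.52 SE, adjusted p = 8.43e-05). DCN, decorin, which binds collagen fibres, had 11.04, 12.8 and 6.32 CPM at 10ss, against 0.115, 0.0436, 0.193 and 0.0757 CPM at HH5 (log2 fold change 6.47 ± 0.97 SE, adjusted p = 1.88e-06), and COL2A1, the fibre-forming collagen of cartilage and notochord, had 32.4, 20.5 and 27.8 CPM at 10ss, against 5.72, 7.06, 7.21 and 8.93 CPM at HH5 (log2 fold change 1.90 ± 0.25 SE, adjusted p = 1.95e-07). Of the factors, FOXC2, of paraxial mesoderm and head mesenchyme, had 21.4, 10.4 and 3.89 CPM at 10ss, against 97.8, 104, 135 and 47.6 CPM at HH5 (log2 fold change -3.0011 ± 0.73 SE, adjusted p = 0.00204), and ALX1, of the frontonasal region, had 10.4, 7.57 and 8.24 CPM at 10ss, against 25.6, 48.6, 35.9 and 22.8 CPM at HH5 (log2 fold change -1.92 ± 0.43 SE, adjusted p = 0.00086). TWIST1, a bHLH factor of mesoderm and crest mesenchyme, had 73.6, 36.3 and 24.5 CPM at 10ss, against 296, 408, 241 and 90.9 CPM at HH5 (log2 fold change -2.53 ± 0.79 SE, adjusted p = 0.0159), but its call was lost without 10ss replicate 2 (adjusted p = 0.0689) and without 10ss replicate 3 (adjusted p = 0.091). Without 10ss replicate 2, 4 of the 28 were called lower.

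In the wider matrix list, 13 of 60 glycoproteins and proteoglycans rose and 12 fell, and of 33 collagens 6 rose and 5 fell, with medians of -0.02 for the matrix list and 0.10 for the collagens. FN1, fibronectin, the substrate of migrating mesoderm and crest, had 73.2, 43.1 and 49.8 CPM at 10ss, against 247, 282, 297 and 301 CPM at HH5 (log2 fold change -2.35 ± 0.30 SE, adjusted p = 7.03e-08). PTPRZ1, a receptor phosphatase and proteoglycan of neural progenitors and glia, had 6.62, 7.78 and 9.33 CPM at 10ss, against 0.0382, 0.436, 0.270 and 0.0757 CPM at HH5 (log2 fold change 5.26 ± 0.86 SE, adjusted p = 8.66e-06). LAMA4, a laminin chain of vessel basement membranes, had 60.04, 19.4 and 17.4 CPM at 10ss, against 3.36, 3.40, 3.12 and 3.10 CPM at HH5 (log2 fold change 3.31 ± 0.70 SE, adjusted p = 0.000404), with 10ss replicate 1 the highest. COL13A1, a transmembrane collagen, had 1.60, 0.335 and 1.55 CPM at 10ss, against 10.2, 12.8, 18.5 and 6.96 CPM at HH5 (log2 fold change -3.38 ± 0.78 SE, adjusted p = 0.00118), while SPARC, a matrix protein that binds collagen, had 384, 266 and 353 CPM at 10ss, against 342, 287, 317 and 342 CPM at HH5 and was not called (log2 fold change 0.05 ± 0.13 SE, adjusted p = 0.824).

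Some markers of blood and vessel were also higher. In that list 6 of 26 were called higher and 1 lower, or 3 higher without 10ss replicate 1 or without HH5 replicate 4 (median 0.39). ERG, an ETS factor of endothelium and cartilage, had 8.43, 6.52 and 4.09 CPM at 10ss, against 0.0763, 0.436, 0.617 and 0.189 CPM at HH5 (log2 fold change 4.26 ± 0.66 SE, adjusted p = 3.46e-06), and CDH5, the cadherin of endothelium, had 9.26, 4.72 and 3.16 CPM at 10ss, against 1.37, 1.26, 0.463 and 0.492 CPM at HH5 (log2 fold change 2.67 ± 0.67 SE, adjusted p = 0.00283). TEK, the receptor of angiopoietins, was called at 13.7, 8.36 and 5.60 CPM at 10ss, against 1.56, 2.00, 2.20 and 0.719 CPM at HH5 (log2 fold change 2.51 ± 0.86 SE, adjusted p = 0.0296), and LMO2 at 18.5, 9.16 and 11.8 CPM at 10ss, against 6.37, 4.53, 4.08 and 4.69 CPM at HH5 (log2 fold change 1.42 ± 0.50 SE, adjusted p = 0.0373), but neither call was stable. Without a library, TEK lost its call when 10ss replicate 1 (adjusted p = 0.109) or HH5 replicate 1 (0.0622), 2 (0.0516) or 4 (0.0875) was left out. LMO2 lost its call without 10ss replicate 1 (adjusted p = 0.169) or 3 (0.0613) or HH5 replicate 2 (0.0759), 3 (0.084) or 4 (0.0713). The summed level of the list was 169 to 307 CPM at 10ss and 198 to 281 CPM at HH5, with 10ss replicate 1 the highest of the 7 libraries, and SPI1 and RUNX1 had at most 3 reads in every 10ss library. Without HH5 replicate 1 or 3, 2 members of the list were called lower. Of the 4 defining markers, CDH5 and LMO2 were called higher. KDR (log2 fold change -0.57 ± 0.57 SE, adjusted p = 0.523) and TAL1 (log2 fold change -0.155 ± 0.53 SE, adjusted p = 0.876) were not called. These 4 markers summed to 24.9 to 50.2 CPM at 10ss and 20.1 to 31.6 CPM at HH5, and the ranges overlapped. The part of vessel cells in the rises of matrix genes was not tested.

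Genes of glycolysis were called higher in 8 of 29 cases and lower in 3, the count of falls being 0 without 10ss replicate 1 or HH5 replicate 4 and 1 without 10ss replicate 3 (median 0.45). The rises were 27.6% of the list, against 7.2% of all genes, and the falls 10.3%, near the 9.8% of all genes. LDHB, a lactate dehydrogenase subunit of oxidative tissues, had 5421, 5748 and 7959 CPM at 10ss, against 1860, 1933, 1844 and 2326 CPM at HH5 (log2 fold change 1.68 ± 0.19 SE, adjusted p = 4.15e-09). LDHA, the subunit of glycolytic tissues, had 307, 406 and 1063 CPM at 10ss, against 54.8, 87.5, 71.5 and 279 CPM at HH5 (log2 fold change 2.26 ± 0.54 SE, adjusted p = 0.0015), with 10ss replicate 3 the highest, and lost its call without that library (adjusted p = 0.0556). GPI, the isomerase of the pathway's early steps, had 439.5, 329 and 449 CPM at 10ss, against 160.3, 147, 151 and 204 CPM at HH5 (log2 fold change 1.29 ± 0.18 SE, adjusted p = 5.22e-07), and ENO2, the neuronal enolase, had 15.2, 11.04 and 13.2 CPM at 10ss, against 3.05, 2.22, 3.31 and 2.95 CPM at HH5 (log2 fold change 2.18 ± 0.49 SE, adjusted p = 0.000869). The enolase ENO1 had 2090, 2582 and 3186 CPM at 10ss, against 1696, 1663, 1655 and 1738 CPM at HH5 and did not pass the fold threshold (log2 fold change 0.63 ± 0.13 SE, adjusted p = 0.000258). Of 32 genes of amino acid, one-carbon and nucleotide synthesis 2 were called higher (6.2%, against 7.2% of all genes). These were ADSL and PSPH, the last enzyme of serine synthesis. The count of rises was 4 without 10ss replicate 1 and 1 without 10ss replicate 3 or HH5 replicate 2 (median of the list 0.08). Another 2 were lower (6.2%, against 9.8% of all genes). The lower ones were PHGDH, the entry enzyme of serine synthesis, at 61.5, 82.9 and 107 CPM at 10ss, against 276, 316, 346 and 472 CPM at HH5 (log2 fold change -2.07 ± 0.26 SE, adjusted p = 6.61e-08) and SHMT1, which passes carbon from serine to folate, at 18.7, 22.7 and 21.3 CPM at 10ss, against 63.5, 53.7, 52.6 and 81.7 CPM at HH5 (log2 fold change -1.59 ± 0.28 SE, adjusted p = 2.97e-05).

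Groups for protein synthesis, energy and division had few calls. Of 72 cytosolic ribosomal proteins 6 were called higher (median 0.32), led by RPL10A at 1570, 1340 and 1873 CPM at 10ss, against 694, 564, 599.8 and 787 CPM at HH5 (log2 fold change 1.27 ± 0.23 SE, adjusted p = 4.22e-05) and RPL11 at 839.8, 627 and 749.8 CPM at 10ss, against 309, 299.8, 292 and 405 CPM at HH5 (log2 fold change 1.18 ± 0.25 SE, adjusted p = 0.000365), and a share of 8.3% is near the 7.2% of all genes. The smaller changes in this list went mostly 1 way. At an unadjusted p below 0.05 in edgeR's quasi-likelihood test, 22 of the 72 were higher and 0 lower. Groups did not overlap for 20 of the 72 with 10ss higher, against 2859 of all 18525 genes, and for 0 with 10ss lower. Of 91 subunits of oxidative phosphorylation 2 were called higher, or 1 without 10ss replicate 2 or 3 or HH5 replicate 2, 3 or 4. Of 38 proteasome subunits 0 were called by edgeR's quasi-likelihood test, with 12 higher and 3 lower at an unadjusted p below 0.05, and 0 by DESeq2. PSMA7, a core subunit, had 1797, 1798 and 1495 CPM at 10ss, against 1252, 1209, 1185 and 1224 CPM at HH5 (log2 fold change 0.48 ± 0.13 SE, adjusted p = 0.00418) and did not pass the fold threshold. Of 46 replication genes 2 were called higher, and this count ran from 1 without 10ss replicate 3 to 5 without 10ss replicate 2, with 4 without 10ss replicate 1 or HH5 replicate 1. Of 47 genes of mitosis 2 were called higher, and 0 without HH5 replicate 4. The medians were 0.03 for oxidative phosphorylation, 0.15 for the proteasome, 0.27 for replication and 0.02 for mitosis. CDK1, the kinase of mitotic entry, had 1113, 1249 and 1669 CPM at 10ss, against 1202, 1128, 1196 and 1164 CPM at HH5 (log2 fold change 0.20 ± 0.14 SE, adjusted p = 0.331).

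The 10 stages between the ends show at which stage each group changed, but the piece that was cut changed along the course too. At HH5 and HH6 it was a patch beside the streak, and after HH6 the plate border or the tip of the fold. At the latest stages it was the dorsal tube with the crest leaving it. A change with stage and a change with the piece cannot be told apart. For each called gene whose 10ss and HH5 libraries did not overlap, the first stage was taken from which the stage mean of log2 CPM stayed past the midpoint between both ends. A larger share of the fallen than of the risen genes passed it at the start of the course, 198 of 1672 (11.8%) by HH6 against 91 of 1246 (7.3%) risen genes. By 3ss, 34.2% of fallen and 25.4% of risen genes had passed it, and by 6ss 64.6% of fallen and 59.0% of risen genes. On this scale no stage held more than 14.1% of the falls or 13.2% of the rises, so the changes were spread over the whole course. The shares depended on the scale. On log2(CPM + 1), HH6 held 269 of the 1672 falls in place of 198, and 10ss held 179 of the 1246 rises in place of 164. These are descriptions of stage means and were not tested.

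The groups differed in their stages. All 16 HOX and CDX falls were past the midpoint by 3ss with a median of HH6, all 5 GATA factors by 2ss, 7 of 8 T-box falls and 13 of 16 endoderm falls by 3ss. GATA4, GATA5 and GATA6 are in both the GATA and the endoderm list, so these counts share genes. GATA5 averaged 231 CPM at HH5, 95.7 at HH6, 20.1 at 2ss and 1.71 at 10ss. The falls in the tight junction list, which also holds ESRP1 and ESRP2, were later than in these groups, with 4 of 14 past the midpoint by 3ss. Of all fallen genes 34.2% were past it by 3ss, so the list is not set apart from the falls as a whole. CLDN1 averaged 2032 CPM at HH5, 1963 at 3ss and 505 at 10ss and passed at 7ss, but CLDN3 passed at 1ss and CGN at 2ss. In the other epithelial lists, 6 of 10 keratin and desmosome falls and 4 of 6 connexin falls were past the midpoint by 3ss. Of the risen groups, 4 of 6 Hedgehog genes and 6 of 11 neuronal genes were past the midpoint by 3ss. In contrast 0 of 9 WNT ligands, 0 of 7 Notch genes and 0 of 7 cartilage genes were past it by 3ss, and 6 of the 7 Notch genes passed at 7ss or later. EN1 averaged 1.24 CPM at HH5, 12.8 at 3ss, 141 at 6ss and 204 at 10ss, and WNT1 0.880, 1.45, 40.4 and 35.9 CPM at the same stages. DCN averaged 0.107 CPM at HH5, 0.871 at 6ss and 10.04 at 10ss, so most of its rise came after 6ss. Some genes that were lower at 10ss had first been above their HH5 mean. ALX1 averaged 33.2 CPM at HH5, 114 at 1ss and 8.73 at 10ss, and CNTN2 53.2, 122 and 18.0 CPM at the same stages. WNT2 averaged 6.11 CPM at HH5, 21.1 at 2ss and 0.481 at 10ss.

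**Figure D4:**
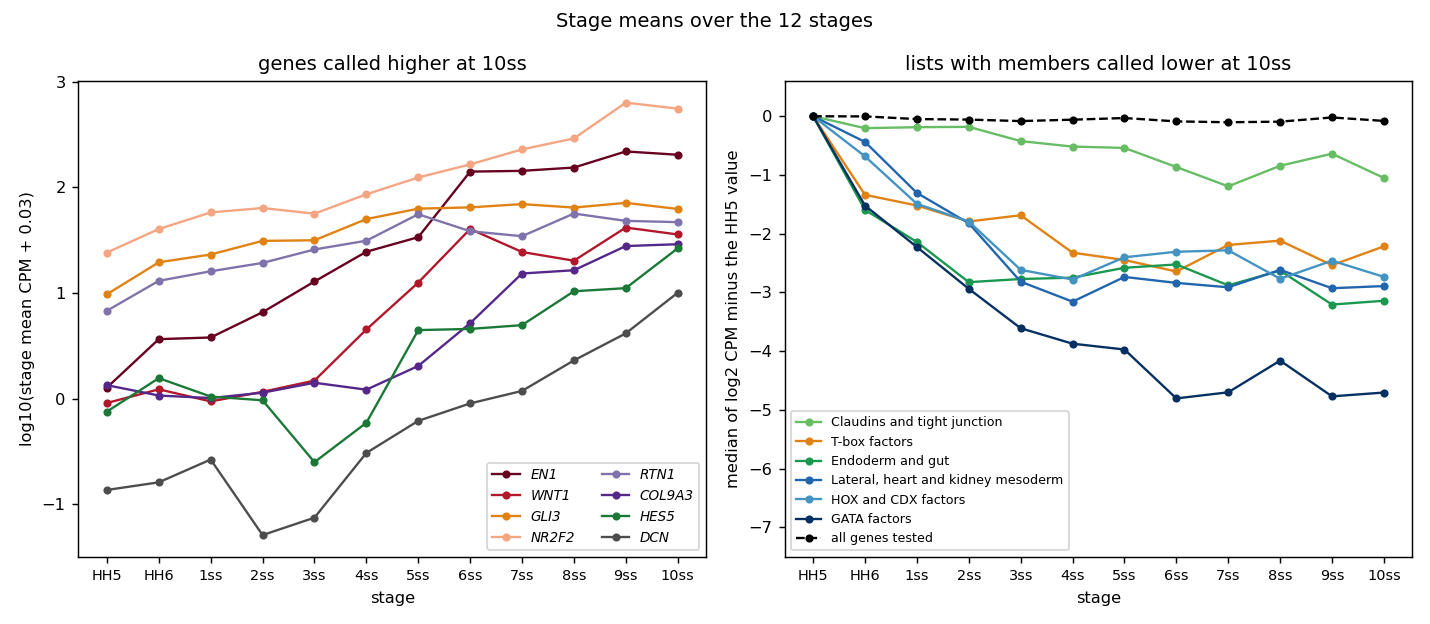
Left, stage mean CPM (log10 axis, 0.03 added) of 8 genes called higher at 10ss over the 12 stages from HH5 to 10ss, where WNT1 stays low up to 3ss and is high by 6ss, and DCN climbs from 3ss on to 10ss. Right, the median over each list of log2 CPM minus its HH5 value, in which the GATA, endoderm and HOX and CDX medians are lower by 2ss (-2.94, -2.83 and -1.79) and the tight junction median only later (-0.18 at 2ss and -1.05 at 10ss), while all genes stay near 0.

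**Figure D5:**
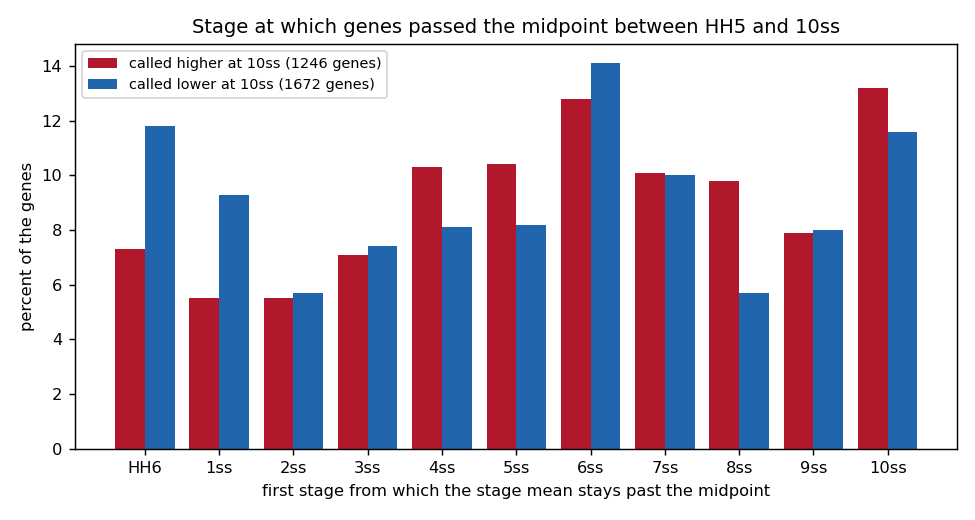
Percent of the 1246 genes called higher (red) and the 1672 called lower (blue) by the first stage from which the stage mean stays past the midpoint between HH5 and 10ss. Falls are more frequent than rises at HH6 (11.8% of the falls and 7.3% of the rises) and 1ss (9.3% of the falls and 5.5% of the rises), and both have bars at every stage.

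The nearest stages that share no library with either end, 9ss (4 libraries) and HH6 (4 libraries), gave a similar comparison in other libraries. The kind of piece that was cut differed between them as it did between the ends. There 6.03% of all genes were called higher at 9ss and 7.07% lower. Of the 1334 genes risen at 10ss, 619 (46.4%) were also called higher at 9ss against HH6, 1234 (92.5%) had the same sign and 3 were called in the opposite direction. Of the 1815 fallen genes 814 (44.8%) were also called lower and 1682 (92.7%) had the same sign. Without HH6 replicate 1 the counts also called were 573 higher and 678 lower. The median log2 fold changes of these genes at 9ss against HH6 were 0.88 for the risen and -1.01 for the fallen, against 1.41 and -1.90 between the ends, which are further apart and which chose the genes.

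By list, the counts at 9ss against HH6 were 5 of 5 lower for GATA factors, 14 of 22 lower for lateral, heart and kidney mesoderm, 12 of 26 lower for endoderm, 8 of 26 lower for HOX and CDX factors and 11 of 31 lower for tight junctions. WNT ligands had 8 of 19 called higher there, neuronal genes 8 of 43 and cartilage and head mesenchyme 7 of 28. For glycolysis 2 of 29 were called higher, against 8 of 29 between the ends. EN1 had a log2 fold change of 5.92 between 9ss and HH6 (adjusted p = 4.53e-13), GATA5 -6.10 (adjusted p = 1.03e-09) and LDHB 0.44 (adjusted p = 0.0465).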

How the data were processed

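Bulk RNA libraries were made with an unstranded Nextera XT kit and sequenced as 55-base read pairs. The counts per gene were deposited by the authors, who mapped reads with STAR to GRCg6a; the version is 2.7.2a per the labels, and the study's methods name another. Since the kit does not mark strand, reads of a gene and of an antisense or overlapping partner cannot be told apart. A deposited table of normalized signal (counts per TMM-scaled library size, made by the authors) supplied gene symbols and descriptions only, and all CPM given here were computed from the deposited counts.

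Genes were kept where any library exceeded 5 reads (18525 of 24356 genes in the deposited table, 23039 of which had a read). Symbols came from the deposited table for 12245 genes and from RefSeq for 1157, and 5123 had none. All 45 libraries in 6 pooled stage groups entered 1 fit with edgeR 4.0.16 (TMM scaling, quasi-likelihood test, Benjamini-Hochberg adjustment over all genes tested) in R 4.3.3. Groups come from the labels. Some groups pool several stages, so the spread behind the p-values and SE includes differences between those stages as well as between pools of embryos. With 12 stages as groups 3287 genes were called, and with only the 7 libraries in the fit 3572, against 3149 in the main fit. DESeq2 1.42.0 was an alternative. SE is the log2 fold change divided by the square root of its F value. Where no library of a group had more than 3 reads, the fold is a lower bound against 3 reads in each library. The scripts were tested on simulated data.

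Named genes are the 15 largest rises and falls among genes that have a symbol, average 5 CPM or more and do not overlap between groups, up to 4 called members of each list in each direction with at least 5 CPM in the higher group, up to 2 uncalled members with the highest mean, and the marker genes. The comparison, the lists and this rule were chosen with earlier results of these data known. The other stages were used for the spread, the stage means and 9ss against HH6. Library totals of 15.4 M to 30.5 M reads over the series set the precision of low genes. Some items are withheld and are not reported here.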

Additional observations from a re-analysis of the deposited data

Results flagged for a closer look

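For the genes named above, 190 sets of 4 HH5 values were examined, and in 13 the highest or lowest library stood apart from the other 3 by more than Dixon's critical value on the log2 CPM scale. Chance marks about 1 in 20 such sets. Of the 13 values, 6 were in HH5 replicate 4, 4 in replicate 1, 3 in replicate 3 and 0 in replicate 2.

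In HH5 replicate 4, WNT2B had 0.151 CPM, WNT1 0.681 CPM, EVPL 36.2 CPM, PDGFA 314 CPM, GDF3 25.2 CPM and RPL11 405 CPM. In HH5 replicate 1, SOX10 had 1.53 CPM, SOX17 24.8 CPM, RTN1 7.56 CPM and CACNG3 21.8 CPM. In HH5 replicate 3, GATA3 had 672 CPM, GJB6 46.4 CPM and CDON 9.48 CPM. In none of these genes did the value reach the range of the 10ss libraries.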

How the results depend on the processing

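The test against a minimum fold change (glmTreat) called 1272 genes, 490 higher and 782 lower, in place of 3149, 1334 and 1815; it asks for a fold change beyond the threshold and so calls fewer genes by construction. The other alternatives (DESeq2, RLE and upper quartile scaling, no filter or a stricter one, only the 7 libraries, 12 stages as groups) gave 2997 to 3572 calls. Leaving out 1 library at a time gave 2432 to 2906 calls, 1118 to 1298 higher and 1314 to 1613 lower. No result changed direction. With the replicate block the counts were 3251 (numbers of the titles) and 3250 (numbers of the descriptions). Libraries of the same number correlated at 0.06, 0.18 and -0.18 by title and at 0.06, 0.17 and 0.25 by description, so the numbers are not taken as pairing the samples, and the block lost no call of a named gene. Of 160 named genes called, 14 lost the call under glmTreat, 7 without a library and 0 under the other alternatives. On log2(CPM + 1), 449 of 2918 genes passed the midpoint at another stage. Genes with few reads have wide errors at this depth, and a miss there does not show that levels were equal.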
